A study of Mus musculus with 36 samples.

Results

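The 33 genes described here encode the chaperones and folding enzymes of the endoplasmic reticulum (ER), the compartment in which secreted and membrane proteins are folded. They were taken by symbol from the 54735 gene symbols of the expression table, by known function and with no measured value in the rule. All 33 were found, and all 33 passed the filter of at least 1 TPM in at least 3 libraries that left 16083 genes to be tested. TPM is a transcript level corrected for transcript length, so it can be compared between genes, and scaled to the same total in every library. Each value is a share of that total, so a difference between libraries also depends on the levels of all other genes. Some counts of genes that differed between groups changed when the libraries were rescaled by median-of-ratios scaling. RNA was sequenced from mouse embryonic fibroblasts (MEF) of 3 genotypes. These were wild type (WT), cells lacking the kinase GCN2 (GCN2-del) and cells lacking the kinase PERK (PERK-del). Cells of each genotype were left untreated, given the solvent DMSO, starved of amino acids in a SILAC RPMI medium that lacked lysine and arginine, or given 200 nM thapsigargin. Thapsigargin blocks the calcium pump of the ER membrane. Both stresses lasted 6 h, no time is given for DMSO, and all cells had been grown in RPMI medium with fetal bovine serum. There were 12 groups of 3 libraries, numbered in the labels as technical replicates. The p-values therefore measure only the spread between libraries, and a deletion and the line that carries it cannot be told apart. The labels do not give the number of clones, the part of either gene that was removed, or which control group belongs to which stress. Starvation was set against untreated cells and thapsigargin against DMSO, and every such contrast was repeated with the other control.

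Proteins that enter the ER are bound by the Hsp70 chaperone BiP, whose cycle is driven by J-domain co-chaperones and by nucleotide exchange factors. Calnexin and calreticulin hold glycoproteins, protein disulfide isomerases form and rearrange disulfide bonds, and peptidyl-prolyl isomerases turn proline bonds. When unfolded proteins gather in the ER, the unfolded protein response (UPR) is switched on through the sensors PERK, IRE1 and ATF6. ATF6 and the IRE1 product XBP1 bind promoter elements of chaperone genes. PERK phosphorylates eIF2alpha, which slows translation and leads to ATF4, and GCN2 phosphorylates the same factor when uncharged tRNA builds up.

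Eif2ak4, which encodes GCN2, stood at 24.6 ± 3.81 TPM in untreated WT and at 5.25 ± 0.619 TPM in untreated GCN2-del cells (values with ± are means and SD over the n = 3 libraries of a group). Eif2ak3, which encodes PERK, stood at 6.99 ± 0.878 TPM in WT and 4.22 ± 0.353 TPM in PERK-del cells, where thapsigargin brought it to 8.61 ± 0.606 TPM. Replicate libraries correlated at 0.962 to 0.988, and in 6 libraries over 1.5% of TPM came from genes named Mir. Fibroblast markers summed to 2849 to 6603 TPM, with 9 of 10 above 1 TPM in some library and Lum below it in all. Markers of macrophages summed to 8.90 to 18.1 TPM, with Ptprc, Adgre1, Csf1r and Tyrobp below 1 TPM throughout. Cd68 and Cd14 reached 1 TPM in some library. Those of endothelium summed to 0.452 to 6.84 TPM and those of epithelium to 2.51 to 13.3 TPM, with Cdh5, Tek, Epcam, Cdh1 and Krt8 below 1 TPM throughout. Pecam1, Kdr, Krt18 and Krt19 each reached 1 TPM in some library. In bulk RNA, fewer cells of a type and less RNA per cell cannot be told apart.

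Thapsigargin raised 18 of the 33 genes in all 3 lines. In WT 24 of the 33 rose and 2 fell against DMSO, where 26.2% of all genes tested were called (11.4% higher and 14.8% lower). In GCN2-del cells 22 rose and 3 fell, against 36.6% of all genes called (25.4% higher and 11.2% lower). In PERK-del cells 23 rose and 1 fell, against 5.24% of all genes called (2.49% higher and 2.75% lower). After median-of-ratios scaling the counts were 24 and 2 in WT, 16 and 4 in GCN2-del cells, and 24 and 1 in PERK-del cells. With that scaling 2587 of all genes tested rose and 2211 fell in WT. The counts of all genes were 2932 and 3149 in GCN2-del cells, and 613 and 401 in PERK-del cells. The median log2 change of the 33 genes was 0.45, 0.30 and 0.72 in the 3 lines, where that of all genes was -0.04, 0.08 and -0.04. Here called, risen and fallen mean that limma gave an adjusted p under 0.05 over all genes tested in that comparison, on the log2(TPM + 1) scale. Together the 33 genes took 0.600% of all TPM in WT cells given DMSO (range 0.582 to 0.609% over the libraries) and 1.47% after thapsigargin (1.43 to 1.49%). That share went from 0.607 to 1.24% in GCN2-del cells and from 0.496 to 1.32% in PERK-del cells, with no overlap between libraries. Hspa5 alone made up 11.5% of the summed TPM of the 33 genes in WT with DMSO and 33.6% with thapsigargin. In the deletion lines its share went from 10.2 to 29.3% and from 9.94 to 25.7%.

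**Figure D1:**
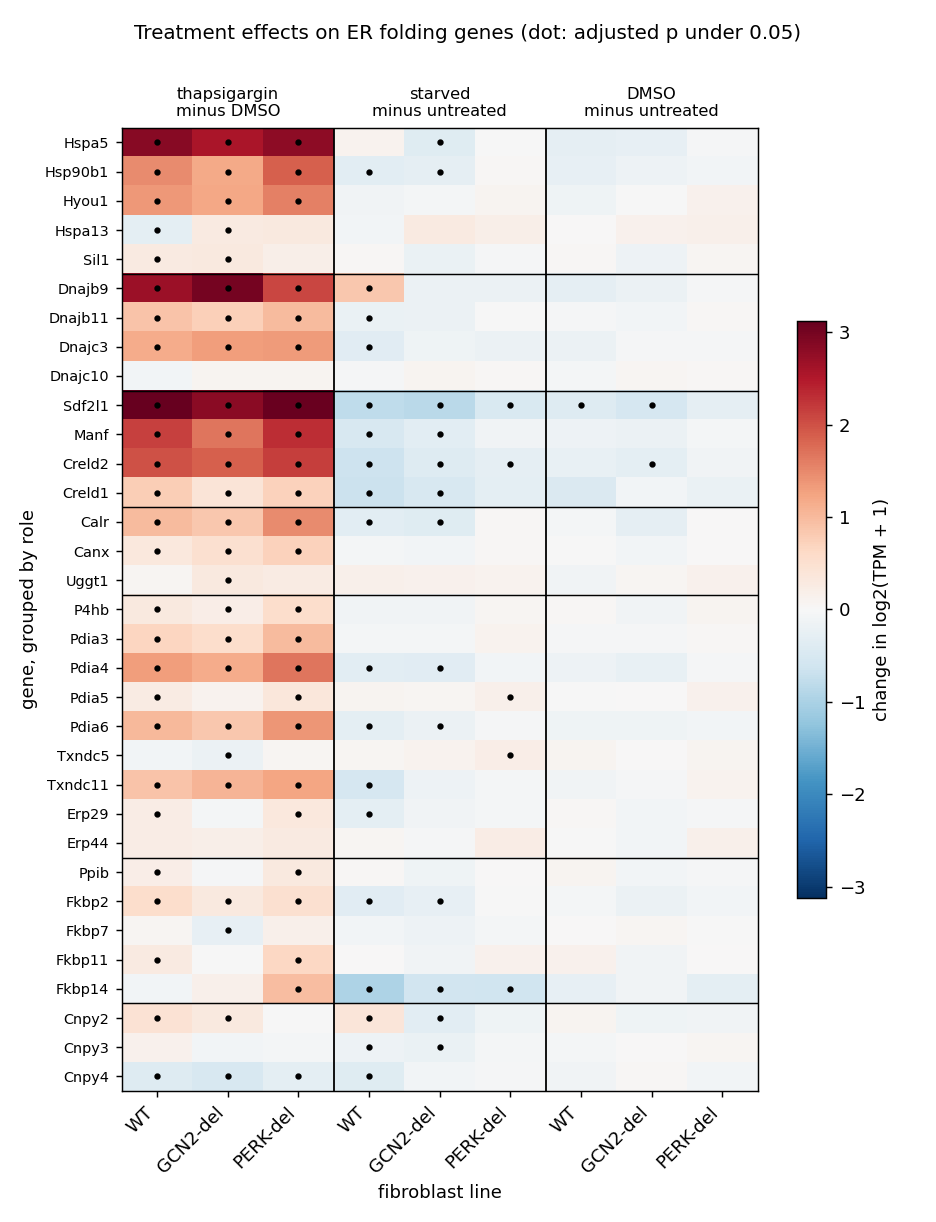
Change in log2(TPM + 1) of each of the 33 genes (rows, grouped by role) with thapsigargin against DMSO, starvation against untreated and DMSO against untreated cells, in each of the 3 lines (columns). Red is higher, blue is lower and a dot marks an adjusted p under 0.05. The thapsigargin columns are mostly red, with 24, 22 and 23 genes called higher, and the starvation columns hold 16, 13 and 3 genes called lower.

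The same 18 genes rose in all 3 lines: Hspa5, Hsp90b1, Hyou1, Dnajb9, Dnajb11, Dnajc3, Sdf2l1, Manf, Creld2, Creld1, Calr, Canx, P4hb, Pdia3, Pdia4, Pdia6, Txndc11 and Fkbp2. Of these 9 rose by a log2 change of at least 1 in every line, namely Hspa5, Hsp90b1, Hyou1, Dnajb9, Dnajc3, Sdf2l1, Manf, Creld2 and Pdia4. The rise of 14 of the 18 was called in all 3 lines under every alternative setting and with any 1 library left out. The other 4 were Creld1, Canx, P4hb and Fkbp2. The remaining 6 genes that rose in no line were Dnajc10, Txndc5, Erp44, Fkbp7, Cnpy3 and Cnpy4. Against untreated in place of DMSO controls 23 genes rose and 3 fell in WT, and 18 rose and 4 fell in GCN2-del cells. In PERK-del cells 27 rose and 1 fell, with Hspa13, Sil1, Uggt1 and Erp44 added. The share of all genes called against untreated controls is not given here.

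Promoters of the genes were searched for the elements that UPR factors are known to bind, since many of the 33 genes rose together. Such elements are known from chaperone genes, so finding them in the 33 genes is description and no independent result. A promoter window of 300 bases, from 250 before to 50 after the RefSeq start in GRCm38.p6, was matched for 28 of the 33 genes. Hyou1, Hspa13, Sil1, Manf and Erp29 were not searched. The ER stress response element (ERSE), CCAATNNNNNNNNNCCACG on either strand, is the site at which ATF6 binds together with the CCAAT factor NF-Y. It was found in 7 of the 28 genes (25.0%), against 18 of 10074 tested genes with a window (0.179%) and 39 of all 32851 windows (0.119%). The matches below are written 5′ to 3′ in the direction of the element, with its fixed bases in capitals, and are shown because they are the sites shared by the 7 genes.
Hspa5: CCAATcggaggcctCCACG
Hsp90b1, upstream match: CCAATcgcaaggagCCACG
Hsp90b1, downstream match: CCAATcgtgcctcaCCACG
Dnajc3: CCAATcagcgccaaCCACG
Creld2: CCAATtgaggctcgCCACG
Calr: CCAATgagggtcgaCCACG
Canx: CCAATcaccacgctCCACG
Pdia6: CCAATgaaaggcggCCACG
The Hspa5 match lies at chr2:34772025-34772043, 65 to 47 bases before the RefSeq start on the gene's own (plus) strand, and GENCODE M21 has a gene model that starts further upstream. The Hsp90b1 matches lie at chr10:86705638-86705656 on the gene's own (minus) strand and at chr10:86705533-86705551 on the other strand. The matches of Dnajc3 (chr14:118937827-118937845, plus), Canx (chr11:50325800-50325818, minus) and Pdia6 (chr12:17266491-17266509, plus) are on the gene's own strand. Those of Creld2 (chr15:88819520-88819538, read on the minus strand) and Calr (chr8:84847075-84847093, read on the plus strand) are on the other strand.

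The bases directly upstream of the RefSeq start are given 5′ to 3′ on the gene's strand for 4 of the genes, as the largest riser without an ERSE match (Sdf2l1), a pair with an ERSE on the other strand (Creld2 and Calr), and a gene that rose with starvation in WT and fell in GCN2-del cells (Cnpy2). Capitals mark the fixed bases of the ERSE in Creld2 and Calr, which read as its reverse complement there, the CCACG part alone, likewise as its reverse complement, in Sdf2l1, and TGATGNAA in Cnpy2.
Creld2, chr15:88819496-88819645, plus strand: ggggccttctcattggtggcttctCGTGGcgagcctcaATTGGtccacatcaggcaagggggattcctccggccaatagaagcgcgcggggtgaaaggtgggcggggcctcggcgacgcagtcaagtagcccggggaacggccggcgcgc
Calr, chr8:84846932-84847131, minus strand: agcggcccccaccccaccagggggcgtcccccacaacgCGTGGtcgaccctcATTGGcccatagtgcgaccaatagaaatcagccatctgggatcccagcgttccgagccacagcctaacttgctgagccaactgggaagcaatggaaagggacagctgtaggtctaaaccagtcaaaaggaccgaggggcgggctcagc
Sdf2l1, chr16:17132384-17132533, minus strand: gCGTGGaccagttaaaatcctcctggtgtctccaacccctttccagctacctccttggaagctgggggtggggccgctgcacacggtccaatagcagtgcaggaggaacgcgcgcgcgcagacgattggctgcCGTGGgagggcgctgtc
Cnpy2, chr10:128322309-128322458, plus strand: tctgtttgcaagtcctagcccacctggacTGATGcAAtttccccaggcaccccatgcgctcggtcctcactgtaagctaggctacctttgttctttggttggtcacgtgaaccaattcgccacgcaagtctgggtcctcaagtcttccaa

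All 7 genes with an ERSE match rose with thapsigargin in all 3 lines, with a median log2 change of 1.17 in WT, 1.19 in GCN2-del cells and 1.48 in PERK-del cells. The 21 genes with a window and no match had medians of 0.28, 0.21 and 0.51. Of those, 13 rose and 1 fell in WT, 11 and 3 in GCN2-del cells, and 13 and 1 in PERK-del cells. Since such elements are known from chaperone genes, this split is likewise description and no independent result. Sdf2l1 and Dnajb9, with changes of 3.13 and 2.68 in WT, are among those 21. For Dnajb9 and Uggt1 the window lies wholly within the GENCODE M21 gene, so the bases before that start were not searched. With starvation in WT the 7 genes had a median of -0.33, and 5 of them fell. The related ERSE-II, ATTGGNCCACG, was found in Dnajb11 alone (ATTGGcCCACG at chr16:22857852-22857862, after the start), against 0.0993% of tested genes. TGACGTGG, a core of the XBP1 element UPRE, was found in Txndc5 and Txndc11 (7.14% of the 28 genes), against 1.01% of tested genes. The Txndc5 match comes from a window wholly within the GENCODE M21 gene, with a RefSeq start 910 bases after the GENCODE start. CCACG, which is part of the ERSE, was found in 23 of the 28 genes (82.1%), against 52.5% of tested genes. In Dnajb9, Txndc5, Fkbp2, Fkbp11 and Fkbp14 its matches lie only in windows wholly within the GENCODE M21 gene. TGATGNAA, the CARE element that ATF4 and its partners bind, was found in Txndc5 and Cnpy2 (7.14% of the 28 genes), against 2.6% of tested genes. With starvation in WT the change of Txndc5 was 0.06 and not called. Dnajb9, which rose there by 0.83, had no CARE match in the window searched. A match here is a match of letters, and binding was not measured.

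**Figure D2:**
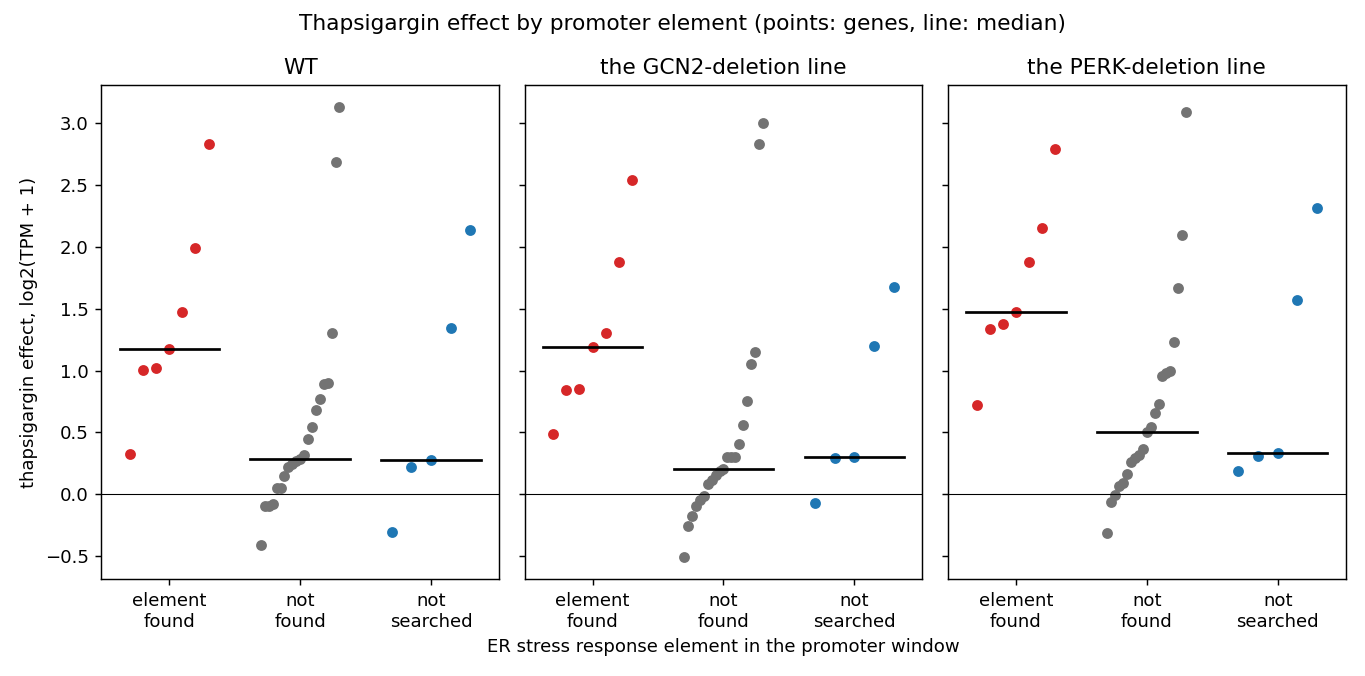
Thapsigargin effect in log2(TPM + 1) for each gene (points), split by whether the promoter window holds an ERSE match (7 genes), holds none (21 genes) or was not searched (5 genes), in the 3 lines. Lines are medians, and the 7 genes with a match lie above 0 in every line, while the highest point in each line is a gene without one.

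The major Hsp70 chaperone of the ER, BiP, is encoded by Hspa5 (chr2:34771970-34777547, plus strand). In WT its level was 711, 656 and 709 TPM in the 3 DMSO libraries and 5164, 4768 and 4888 TPM in the 3 thapsigargin libraries. The thapsigargin libraries lay far above all others, and the change in log2(TPM + 1) was 2.83, SE 0.06, adjusted p = 4.5e-23 by limma. In GCN2-del cells Hspa5 went from 622 ± 21.8 to 3632 ± 145 TPM (2.54), and in PERK-del cells from 493 ± 21.2 to 3405 ± 32.7 TPM (2.79). The rise of Hspa5 ranked 14 of 16083 genes in WT, 41 in GCN2-del cells and 7 in PERK-del cells. Hsp90b1 encodes GRP94, the Hsp90 chaperone of the ER, and was the next most abundant of this group. It stood at 599.6, 546 and 607 TPM with DMSO and 1680.5, 1522 and 1670.2 TPM with thapsigargin in WT (1.47, SE 0.09, adjusted p = 3.92e-13), and rose by 1.19 and 1.87 in GCN2-del and PERK-del cells. Hyou1 encodes GRP170, a large Hsp70 relative that acts as an exchange factor of BiP, and rose by 1.35, 1.20 and 1.57 in the same order. PERK-del cells reached the highest Hyou1 level, 363 ± 8.20 TPM against 221 ± 14.2 TPM in WT.

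Sil1, a further exchange factor of BiP, rose slightly in WT (0.28, SE 0.08, adjusted p = 0.0102) and in GCN2-del cells (0.30), and was 0.19 in PERK-del cells (adjusted p = 0.239). The WT call ended without replicate 2 of WT thapsigargin (adjusted p = 0.0759), and the GCN2-del call against untreated cells (0.13, adjusted p = 0.198) and after median-of-ratios scaling (0.16, adjusted p = 0.246). Hspa13 is an Hsp70-like ATPase found in microsomes. Its WT libraries read 33.6, 27.1 and 32.5 TPM with DMSO and 29.97, 21.6 and 23.5 TPM with thapsigargin, so the groups overlapped. Both calls were marginal, a fall in WT (-0.31, SE 0.11, adjusted p = 0.0464) and a rise in GCN2-del cells (0.29, SE 0.11, adjusted p = 0.049). The first ended without any of 4 among 6 libraries (highest adjusted p = 0.26), the second without any 1 of the 6 libraries (highest adjusted p = 0.177). In PERK-del cells Hspa13 went from 43.6 ± 0.470 to 54.2 ± 1.68 TPM without passing (0.31, SE 0.11, adjusted p = 0.144), although the groups did not overlap. The adjusted limit was stricter in PERK-del cells, where 5.24% of all genes were called, than in GCN2-del cells with 36.6%. A similar change could thus pass in 1 line and not in another, here and for the other genes.

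**Figure D3:**
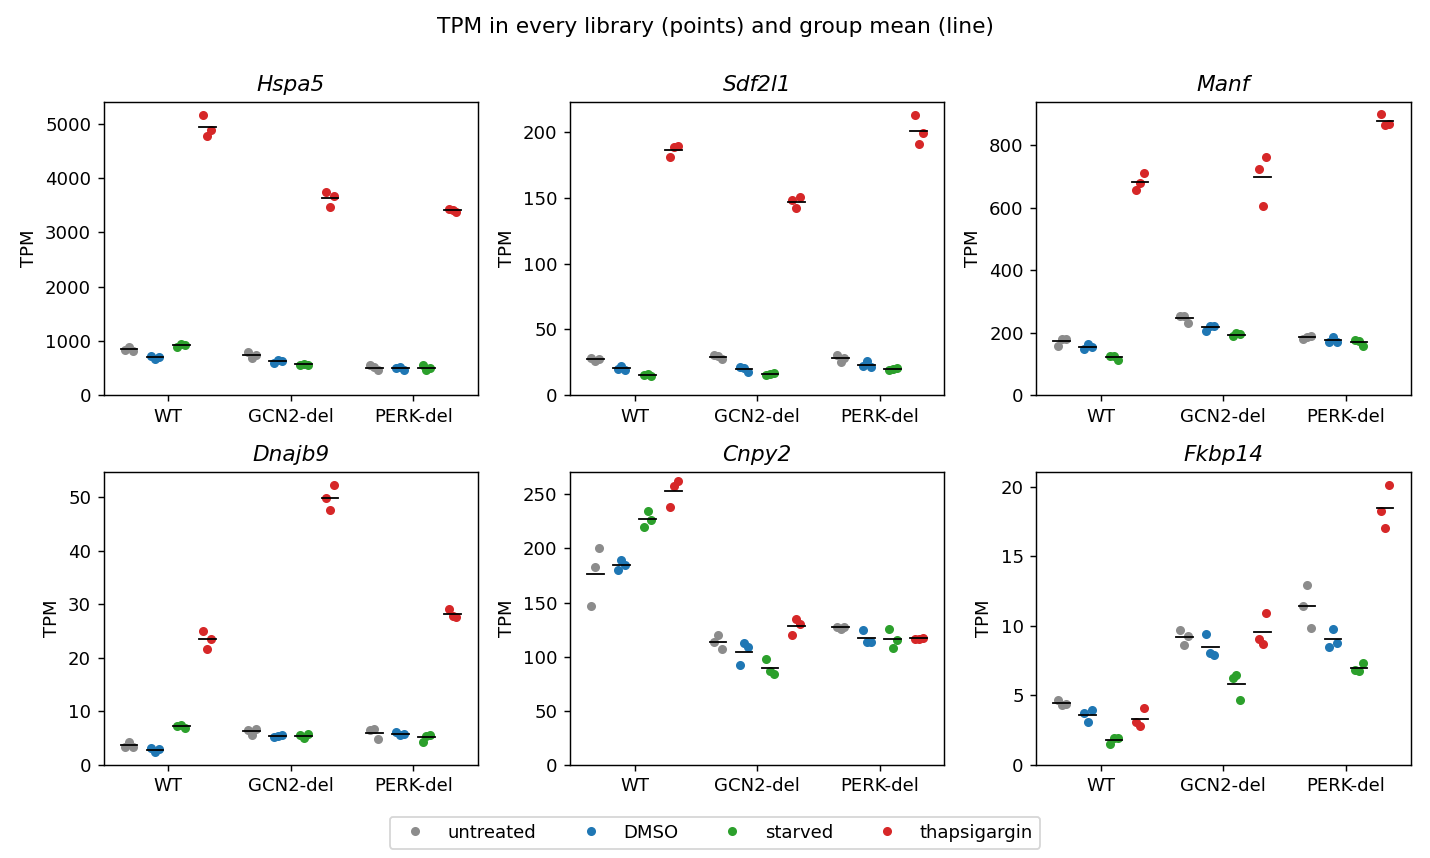
TPM of Hspa5, Sdf2l1, Manf, Dnajb9, Cnpy2 and Fkbp14 in each of the 36 libraries (points, with the group mean as a line), by line and treatment, on linear axes that start at 0. Thapsigargin stands far above the other groups for Hspa5, Sdf2l1, Manf and Dnajb9 in every line, Cnpy2 is highest in the starved and thapsigargin groups of WT, and Fkbp14 is highest in PERK-del cells with thapsigargin.

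Among the J-domain proteins, which deliver substrates to BiP and start its ATPase, Dnajb9 (chr12:44205559-44210326, minus strand) changed most. Dnajb9 encodes ERdj4. It stood at 3.20, 2.36 and 2.87 TPM with DMSO in WT and at 25.0, 21.7 and 23.5 TPM with thapsigargin (2.68, SE 0.10, adjusted p = 8.35e-18). GCN2-del cells went from 5.11, 5.37 and 5.59 to 49.9, 47.6 and 52.2 TPM (3.00), the highest level of any group. PERK-del cells went from 6.15, 5.59 and 5.72 to 29.1, 27.7 and 27.6 TPM (2.10). Its control level in both deletion lines was above that of WT, so the thapsigargin level in PERK-del cells was not below WT although the log2 change was smaller. Dnajb11 (ERdj3) rose by 0.89, 0.75 and 0.99 in WT and GCN2-del and PERK-del cells, from 84.7 ± 1.33 to 158 ± 4.31 TPM in WT. Dnajc3, which encodes p58IPK, a co-chaperone also described as an inhibitor of PERK, rose by 1.17, 1.31 and 1.34, reaching 88.5 ± 0.794 TPM in PERK-del cells. Dnajc10 (ERdj5), a disulfide reductase with a J domain, was called in none of the 3 lines, with changes from -0.09 to 0.09.

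The 4 small ER proteins all rose in every line, with a median of 2.07 in WT. They were grouped as stress-responsive, so a large rise of this group is description and no independent result. Sdf2l1 (chr16:17130138-17132383, minus strand), which works with J-domain proteins to keep BiP clients soluble, had the largest rise of the 33 genes in WT. It went from 20.2, 21.9 and 19.4 TPM with DMSO to 182, 189 and 189 TPM with thapsigargin (3.13, SE 0.08, adjusted p = 5.7e-22), and by 2.83 and 3.09 in GCN2-del and PERK-del cells. Its rise ranked 11, 26 and 4 among all genes tested in WT and GCN2-del and PERK-del cells. Manf, a secreted protein that binds BiP and protects cells from ER stress, read 147, 163 and 153 TPM with DMSO and 656, 678 and 710.0 TPM with thapsigargin in WT (2.14, SE 0.07, adjusted p = 9.75e-20). In GCN2-del cells Manf started higher and rose less, from 205, 221 and 222 to 723, 606 and 761 TPM (1.68), and in PERK-del cells it reached 898, 865 and 868 TPM (2.32). Creld2, a disulfide isomerase-like protein, rose by 1.99, 1.88 and 2.15, from 91.3 ± 3.21 to 367 ± 5.18 TPM in WT. Its relative Creld1 rose less, by 0.77, 0.41 and 0.73. Against untreated cells the Creld1 calls ended in WT (0.33, adjusted p = 0.0741) and in GCN2-del cells (0.32, adjusted p = 0.0771), where the call also ended without any of 4 among 6 libraries (highest adjusted p = 0.156). The GCN2-del call of Creld1 ended as well after scaling, with no filter and with the compared groups fitted alone.

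Of the glycoprotein folding genes, Calr, which encodes the soluble lectin calreticulin, rose most. It read 1045, 1005 and 1083 TPM with DMSO and 2050.3, 2064 and 2155 TPM with thapsigargin in WT (1.00, SE 0.09, adjusted p = 5.96e-10), and rose by 0.84 in GCN2-del cells and 1.48 in PERK-del cells. Canx, its membrane-bound relative calnexin, rose by 0.32, 0.49 and 0.72, and the WT call ended without replicate 2 of WT DMSO (adjusted p = 0.0666). Uggt1, the glucosyltransferase that marks unfolded glycoproteins for another round, rose in GCN2-del cells (0.30, SE 0.09, adjusted p = 0.0114) and was 0.05 in WT and 0.26 in PERK-del cells.

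Protein disulfide isomerases and their relatives rose in 7 of 9 cases in WT, 5 of 9 in GCN2-del cells, where Txndc5 fell, and 7 of 9 in PERK-del cells. Pdia4 (ERp72) rose most, from 138, 124 and 136 to 339, 314 and 331 TPM in WT (1.30, SE 0.06, adjusted p = 1.36e-15), by 1.15 in GCN2-del cells, and to 402, 408 and 402 TPM in PERK-del cells (1.66). Pdia6 (P5), which also damps IRE1 signalling, rose by 1.02, 0.85 and 1.38. Pdia3 (ERp57), the partner of calnexin and calreticulin, rose by 0.68, 0.56 and 0.98. Txndc11, a thioredoxin-related membrane protein, rose by 0.90, 1.06 and 1.23. P4hb, the founding disulfide isomerase, rose less, by 0.32, 0.21 and 0.54. Its call in GCN2-del cells ended against untreated cells (0.10, adjusted p = 0.284) and without any of replicate 1 of GCN2-del DMSO, replicate 1 of GCN2-del thapsigargin or replicate 3 of GCN2-del thapsigargin (highest adjusted p = 0.153). That call also ended after scaling, with no filter and with the compared groups fitted alone. Pdia5 and Erp29 rose in WT (0.27 and 0.22) and in PERK-del cells (0.36 and 0.34) and were 0.12 and -0.07 in GCN2-del cells. The Erp29 call in WT ended without replicate 2 of WT thapsigargin (adjusted p = 0.0591). The fall of Txndc5 in GCN2-del cells was small (-0.17) and ended without any of replicate 2 of GCN2-del DMSO, replicate 3 of GCN2-del DMSO or replicate 2 of GCN2-del thapsigargin (highest adjusted p = 0.104). Erp44, which returns escaped ER proteins from the Golgi, was called in none of the lines, with changes of 0.24, 0.19 and 0.29.

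The peptidyl-prolyl isomerases moved less and less evenly. Fkbp2 rose in all 3 lines (0.54, 0.30 and 0.51), and its call in GCN2-del cells ended against untreated cells (0.11, adjusted p = 0.257) and after scaling (0.15, adjusted p = 0.351). Ppib, which encodes cyclophilin B, rose in WT (0.22) and in PERK-del cells (0.31), and was -0.05 in GCN2-del cells. After scaling neither Ppib rise passed (adjusted p = 0.0585 and 0.0615), and the WT call ended without any of 4 among 6 libraries (highest adjusted p = 0.0604). Fkbp11 rose by 0.28 in WT and 0.66 in PERK-del cells, and was -0.01 in GCN2-del cells. The WT call ended without either replicate 1 of WT DMSO or replicate 2 of WT thapsigargin (highest adjusted p = 0.057). Fkbp7 fell slightly in GCN2-del cells (-0.26), a call that ended without replicate 3 of GCN2-del thapsigargin (adjusted p = 0.121). Fkbp14 (chr6:54577604-54597308, minus strand), which acts on procollagen in the ER and whose locus overlaps that of Plekha8 on the other strand, rose in PERK-del cells alone, from 8.49, 9.79 and 8.79 to 18.2, 17.0 and 20.2 TPM (0.96, SE 0.12, adjusted p = 1.21e-06). In WT it read 3.76, 3.05 and 3.91 TPM with DMSO and 3.10, 2.76 and 4.07 TPM with thapsigargin (-0.09, SE 0.12, adjusted p = 0.645), and the groups overlapped. Against untreated WT cells Fkbp14 fell (-0.35, adjusted p = 0.0209).

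The canopy genes Cnpy2, Cnpy3 and Cnpy4 encode small ER proteins, of which Cnpy3 assists the folding of Toll-like receptors and Cnpy2 has been described as an activator of PERK. Cnpy2 (chr10:128322459-128327553, plus strand) read 180.5, 189 and 185 TPM with DMSO and 239, 258 and 262 TPM with thapsigargin in WT, with no overlap (0.45, SE 0.08, adjusted p = 0.000126). In PERK-del cells it read 125, 113 and 114 and 117, 116 and 118 TPM in the same groups, which overlapped (adjusted p = 1). In GCN2-del cells Cnpy2 rose by 0.30, which did not pass against untreated cells (0.17, adjusted p = 0.0975) or after scaling (0.15, adjusted p = 0.396) and ended without replicate 1 of GCN2-del DMSO (adjusted p = 0.0588). Cnpy4 was the 1 gene of the 33 that fell in all 3 lines. It went from 48.3, 48.3 and 52.1 TPM with DMSO to 35.8, 37.7 and 37.6 TPM with thapsigargin in WT (-0.41, SE 0.06, adjusted p = 1.91e-06), and the changes in GCN2-del and PERK-del cells were -0.51 and -0.31, in each case with no overlap. Cnpy3 was called in none of the lines.

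The thapsigargin response of the 33 genes was next compared between each deletion line and WT, as the difference of both log2 changes in 1 model. In PERK-del cells the response was higher than in WT for 8 genes and lower for 2, against 12.9% of all genes called (5.56% higher and 7.31% lower). The 8 were Hsp90b1, Hspa13, Calr, Canx, Pdia4, Pdia6, Fkbp11 and Fkbp14, and the 2 were Dnajb9 and Cnpy2. Fkbp14 differed most (1.05, SE 0.17, adjusted p = 4.53e-05), followed by Hspa13 (0.62, SE 0.16, adjusted p = 0.0102). Pdia4 (0.36, SE 0.09, adjusted p = 0.00477), Pdia6 (0.36, SE 0.07, adjusted p = 0.000709) and Calr (0.47, SE 0.12, adjusted p = 0.00986) rose in both lines and rose more in PERK-del cells. The calls of Fkbp14, Hspa13, Pdia4 and Pdia6 held under every alternative and with any 1 library left out. The response of Dnajb9 was lower (-0.59, SE 0.14, adjusted p = 0.00555), but this call ended against untreated controls (-0.33, adjusted p = 0.106). That of Cnpy2 was lower (-0.45, SE 0.12, adjusted p = 0.00886), a call that ended after scaling (adjusted p = 0.0785), as did that of Calr (adjusted p = 0.0565). The call for Canx ended without any of 8 among 12 libraries (highest adjusted p = 0.119), for Hsp90b1 without any of 7 among 12 libraries (highest adjusted p = 0.103) and for Fkbp11 without any of 5 among 12 libraries (highest adjusted p = 0.0957). The Fkbp11 call also ended against untreated controls (adjusted p = 0.124) and after scaling (adjusted p = 0.209). For Hspa5, Sdf2l1, Manf and Creld2, which with Dnajb9 rose most in WT, the differences were -0.05, -0.04, 0.18 and 0.16 with SE 0.09, 0.11, 0.09 and 0.08, and did not pass.

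In GCN2-del cells the thapsigargin response was higher than in WT for 1 gene, Hspa13, and lower for 3, Hspa5, Manf and Erp29, against 14.2% of all genes called (12.3% higher and 1.88% lower). Manf differed by -0.46, SE 0.09, adjusted p = 0.00186, the 1 call of the 4 that held under every alternative and with any 1 library left out. Hspa5 differed by -0.29, SE 0.09, adjusted p = 0.0305, which did not hold without any of 6 among 12 libraries (highest adjusted p = 0.0733). Erp29 differed by -0.29, SE 0.09, adjusted p = 0.0238, which ended without any of 5 among 12 libraries (highest adjusted p = 0.0856). Hspa13 differed by 0.60, SE 0.16, adjusted p = 0.0156, which ended without either replicate 1 of WT DMSO or replicate 2 of WT thapsigargin (highest adjusted p = 0.0619). The number of calls in this comparison depended on scaling. The median difference of all genes was 0.13 as deposited and -0.04 after median-of-ratios scaling. With that scaling 1 of the 33 genes responded higher and 16 lower, against 1114 and 1054 of all genes tested. Against untreated in place of DMSO controls 4 responded higher and 11 lower, with a median of 0.25 for all genes. The share of all genes called with those controls is not given here. Over all genes the share of higher calls went from 86.7% as deposited to 51.4% after scaling. In GCN2-del cells themselves the median of all genes went from 0.08 to -0.02 with scaling. There 16 of the 33 genes rose and 4 fell with thapsigargin, against 2932 and 3149 of all genes tested.

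**Figure D4:**
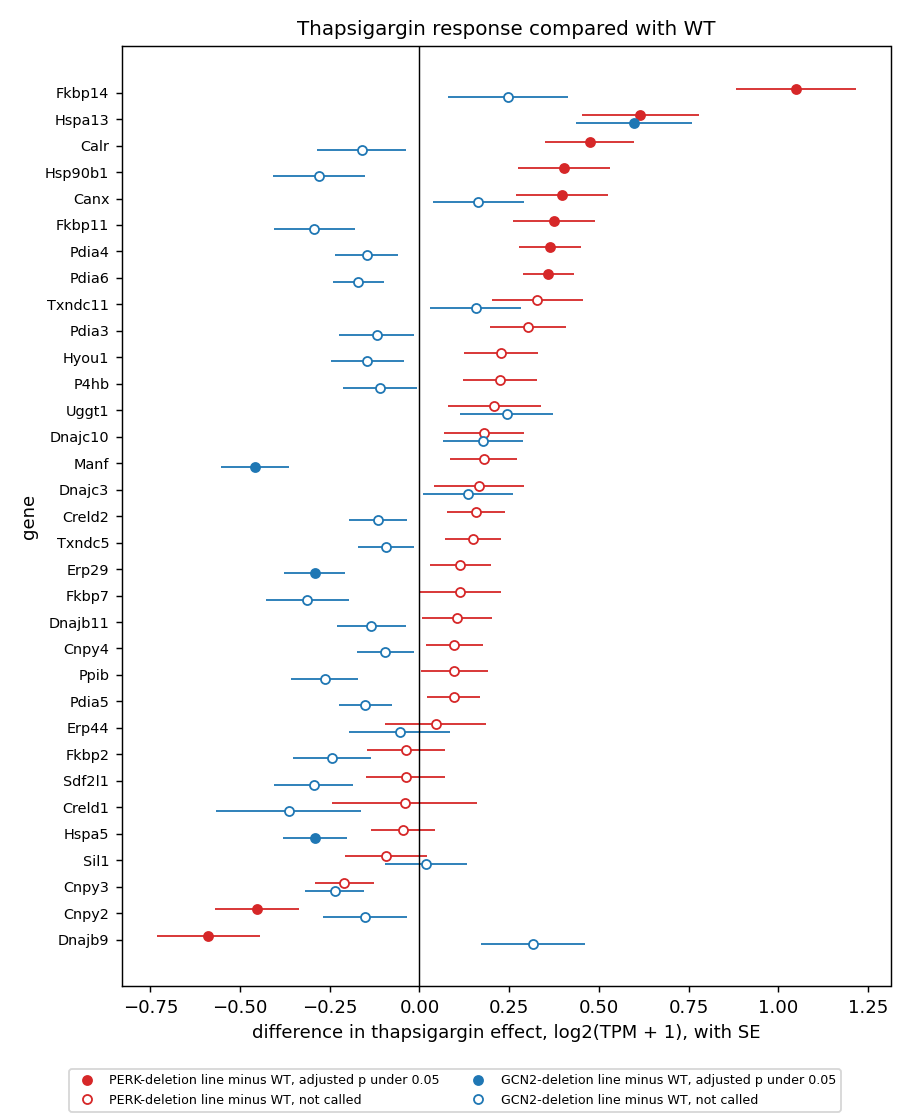
Difference in the thapsigargin effect on log2(TPM + 1) between each deletion line and WT, with its SE, for each of the 33 genes (filled: adjusted p under 0.05). Points right of 0 responded more than in WT: 8 filled points for PERK-del cells, led by Fkbp14, and 1 for GCN2-del cells, with 2 and 3 filled points left of 0.

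Amino acid starvation did not raise the ER folding genes as thapsigargin did. In WT 2 of the 33 rose and 16 fell against untreated cells, where 29.8% of all genes were called (12.5% higher and 17.3% lower), with a median of -0.12 against -0.05 for all genes. In GCN2-del cells none rose and 13 fell, against 23.8% of all genes called (11.7% higher and 12.1% lower). At an unadjusted limma p under 0.05 there were 2 higher and 15 lower in that line, and the share of all genes under that limit is not given here. In PERK-del cells 2 rose and 3 fell, against 12% of all genes called (5.67% higher and 6.32% lower). Of the 16 genes that fell in WT, 13 had risen with thapsigargin there, as had 24 of all 33. The matching share among all genes that fell is not given here. The 4 small ER proteins all fell in WT. Sdf2l1 went from 27.9, 26.0 and 27.6 TPM untreated to 14.9, 16.4 and 14.8 TPM starved (-0.79, SE 0.08, adjusted p = 5.2e-09), and its changes in GCN2-del and PERK-del cells were -0.83 and -0.47. Creld2 fell with changes of -0.64, -0.41 and -0.27. Fkbp14 fell most in WT, from 4.69, 4.27 and 4.35 to 1.5, 1.94 and 1.92 TPM (-0.97, SE 0.12, adjusted p = 2.07e-07), and its changes in the deletion lines were -0.60 and -0.63. Sdf2l1, Creld2 and Fkbp14 were the 3 genes that fell in all 3 lines. Manf, Pdia4, Pdia6 and Cnpy4 fell in WT, with changes of -0.50, -0.32, -0.30 and -0.39. In PERK-del cells the 2 genes that rose were Pdia5 (0.16) and Txndc5 (0.20). The Pdia5 call ended without any of 4 among 6 libraries (highest adjusted p = 0.327) and that of Txndc5 without any of replicate 2 of PERK-del starved, replicate 3 of PERK-del starved or replicate 3 of PERK-del untreated (highest adjusted p = 0.164). After scaling, 4 of the 33 genes rose and 11 fell in WT, where 2720 of all genes tested rose and 2496 fell.

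The choice of control bore on these counts. Against DMSO, starvation raised 4 and lowered 12 of the 33 genes in WT, and lowered 4 in GCN2-del cells. The share of all genes called against DMSO is not given here. Called lower in WT with either control were 12 genes: Dnajb11, Sdf2l1, Manf, Creld2, Calr, Pdia4, Pdia6, Txndc11, Erp29, Fkbp2, Fkbp14 and Cnpy4. Hsp90b1, Dnajc3, Creld1 and Cnpy3 fell against untreated cells only. The WT calls of Dnajb11 and Cnpy3 ended without any of replicate 3 of WT starved, replicate 2 of WT untreated or replicate 3 of WT untreated (highest adjusted p = 0.0725) and any of 4 among 6 libraries (highest adjusted p = 0.173) in turn. Of all 18 calls in WT, 8 held under every alternative and with any 1 library left out, namely Dnajb9, Sdf2l1, Manf, Creld2, Pdia4, Pdia6, Fkbp14 and Cnpy4. In GCN2-del cells Sdf2l1, Creld1, Fkbp14 and Cnpy3 fell with either control, and Hspa5 (-0.14, adjusted p = 0.13 against DMSO), Manf (-0.16, adjusted p = 0.1) and Creld2 (-0.10, adjusted p = 0.239) did not. The Creld1 call against untreated cells ended there without replicate 2 of GCN2-del starved (adjusted p = 0.0551), and that of Cnpy3 without any of replicate 2 of GCN2-del starved, replicate 1 of GCN2-del untreated or replicate 2 of GCN2-del untreated (highest adjusted p = 0.0862). All 5 calls in PERK-del cells ended against DMSO, Sdf2l1 with -0.19, adjusted p = 0.134. Fitting the starved and untreated groups alone left 9 calls in WT and likewise ended all 5 in PERK-del cells.

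**Figure D5:**
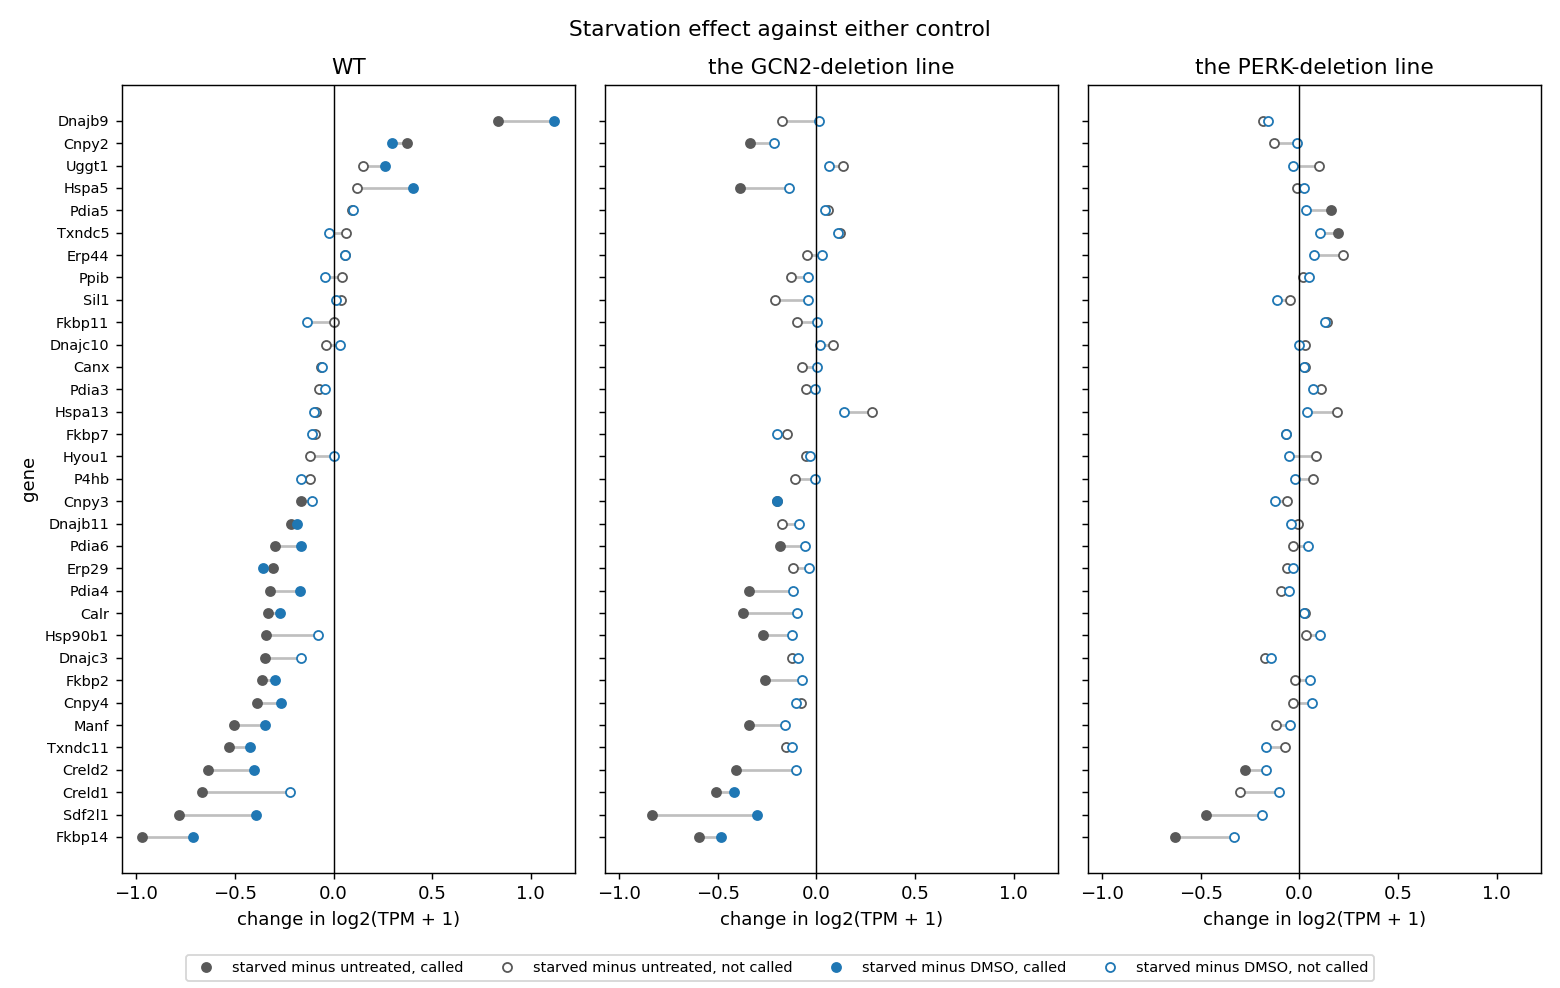
Starvation effect on log2(TPM + 1) for each of the 33 genes against untreated cells and against DMSO, in each line (filled: adjusted p under 0.05). In WT most points lie left of 0 with either control, Dnajb9 and Cnpy2 lie right of 0 with both, and in PERK-del cells no point is filled against DMSO.

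Dnajb9 and Cnpy2 rose with starvation in WT, against the trend of the other genes. Dnajb9 read 3.37, 4.20 and 3.34 TPM untreated and 7.33, 7.51 and 6.86 TPM starved in WT (0.83, SE 0.10, adjusted p = 2.34e-07), with every starved library above every control library. In GCN2-del cells it read 6.40, 5.55 and 6.76 TPM untreated and 5.53, 5.02 and 5.67 TPM starved (-0.17, SE 0.10, adjusted p = 0.241), and in PERK-del cells 6.52, 6.72 and 4.76 and 4.34, 5.40 and 5.65 TPM (-0.19, SE 0.10, adjusted p = 0.27). The starvation response of Dnajb9 was lower than in WT, with differences of -1.01, SE 0.14, adjusted p = 1.21e-05 in GCN2-del cells and -1.02, SE 0.14, adjusted p = 9.34e-06 in PERK-del cells. Both differences held under every alternative and with any 1 library left out, and both share the WT libraries. Untreated Dnajb9 was already higher in both deletion lines than in WT. Cnpy2 read 147, 183 and 200.1 TPM untreated and 219.8, 235 and 226 TPM starved in WT (0.37, SE 0.08, adjusted p = 0.000876), a call that ended with those groups fitted alone (adjusted p = 0.107). In GCN2-del cells it fell from 114, 119.6 and 108 to 98.3, 86.9 and 84.1 TPM (-0.34, SE 0.08, adjusted p = 0.00315, and against DMSO -0.21, adjusted p = 0.0749), and in PERK-del cells it read 128, 126 and 128 and 125, 108 and 116 TPM (-0.13, SE 0.08, adjusted p = 0.372). The Cnpy2 response differed from WT by -0.71, SE 0.12, adjusted p = 9.64e-05 in GCN2-del cells, under every alternative. In PERK-del cells it differed by -0.50, SE 0.12, adjusted p = 0.00415, which ended against DMSO controls (-0.31, adjusted p = 0.106). The PERK-del call also ended after scaling and with the compared groups fitted alone.

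Under starvation Hspa5 fell in GCN2-del cells against untreated cells only, and rose in WT against DMSO only. In WT it read 829.5, 879.8 and 815 TPM untreated, 711, 656 and 709 TPM with DMSO and 886, 939 and 916 TPM starved. The starved libraries lay above both control groups, and the change was 0.12, SE 0.06, adjusted p = 0.168 against untreated cells and 0.40, adjusted p = 1.33e-05 against DMSO. In GCN2-del cells Hspa5 fell from 791, 687 and 737 TPM to 561, 580.2 and 549.9 TPM (-0.39, SE 0.06, adjusted p = 3.66e-05), and in PERK-del cells it was -0.01. The response in GCN2-del cells was lower than in WT (-0.51, SE 0.09, adjusted p = 0.000229), under every alternative and with any 1 library left out.

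Between GCN2-del cells and WT the starvation response differed for 4 of the 33 genes, against 7.71% of all genes called (3.64% higher and 4.07% lower). It was lower for Hspa5, Dnajb9 and Cnpy2 and higher for Cnpy4 (0.31, SE 0.08, adjusted p = 0.0128), whose call ended against DMSO controls (0.16, adjusted p = 0.298) and without either replicate 3 of WT starved or replicate 1 of WT untreated (highest adjusted p = 0.0523). This Cnpy4 call also ended after scaling and with the compared groups fitted alone. Between PERK-del cells and WT it differed for 8 genes, against 10.8% of all genes called (5.53% higher and 5.28% lower). It was lower for Dnajb9 and Cnpy2, and higher for Manf, Creld2, Pdia6, Txndc11, Fkbp2 and Cnpy4, genes that fell in WT. For Manf the difference was 0.38, SE 0.09, adjusted p = 0.0066, for Creld2 0.37, SE 0.08, adjusted p = 0.00234 and for Cnpy4 0.35, SE 0.08, adjusted p = 0.00309. Dnajb9 alone was called under every alternative, and with the compared groups fitted alone it was the 1 call left. The call of Txndc11 (0.46) ended without either replicate 3 of WT starved or replicate 1 of WT untreated (highest adjusted p = 0.0635) and that of Fkbp2 (0.34) without any of 8 among 12 libraries (highest adjusted p = 0.121).

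In WT the thapsigargin response was set against the starvation response gene by gene. It was higher for 21 of the 33 genes and lower for none, against 11.8% of all genes called (6.12% higher and 5.71% lower). At an unadjusted limma p under 0.05 there were 24 higher and none lower, and the share of all genes under that limit is not given here. Sdf2l1 differed most (3.91, SE 0.11, adjusted p = 3.14e-20), followed by Hspa5 (2.71, SE 0.09, adjusted p = 8.24e-19), Manf (2.64, SE 0.09, adjusted p = 4.99e-18) and Creld2 (2.63, SE 0.08, adjusted p = 2.09e-19). Dnajb9, which rose with both stresses, differed by 1.85, SE 0.14, adjusted p = 1.44e-10. Of the 21 calls, 16 held under every alternative and with any 1 library left out. Cnpy2 also rose with both, and its difference did not pass (0.08, SE 0.12, adjusted p = 0.776).

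DMSO alone moved few of the genes, downward in each case that was called. In WT 1 gene fell, Sdf2l1, against 0.0808% of all genes called (0.0311% higher and 0.0497% lower), from 27.9, 26.0 and 27.6 TPM untreated to 20.2, 21.9 and 19.4 TPM (-0.39, SE 0.08, adjusted p = 0.0474). It did not hold without any of 4 among 6 libraries (highest adjusted p = 0.262) and after scaling (adjusted p = 0.117). In GCN2-del cells 2 fell, Sdf2l1 (-0.53, SE 0.08, adjusted p = 0.000792) and Creld2 (-0.30, SE 0.06, adjusted p = 0.0168), against 0.137% of all genes (0.056% higher and 0.0808% lower). Both ended with those groups fitted alone, and Creld2 without any of replicate 1 of GCN2-del DMSO, replicate 3 of GCN2-del DMSO or replicate 1 of GCN2-del untreated (highest adjusted p = 0.212). In PERK-del cells 0 of the 33 were called by limma, against 0.236% of all genes (0.137% higher and 0.0995% lower), and 3 had an unadjusted p under 0.05. In WT 12 of the 33 genes had an unadjusted limma p under 0.05, all lower with DMSO, where the median log2 change of all genes was -0.06. The shares of all genes under the unadjusted limit are not given here.

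Untreated, the lines already differed in these genes. In GCN2-del cells 14 stood higher and 6 lower than in WT, against 44.4% of all genes called (21.2% higher and 23.2% lower). After scaling 16 stood higher and 3 lower, against 4028 and 3414 of all genes tested. In PERK-del cells 10 stood higher and 15 lower, against 49.6% of all genes called (31.1% higher and 18.5% lower). Fkbp11 was lower in both, at 112, 112 and 128 TPM in WT, 63.6, 63.0 and 57.8 TPM in GCN2-del cells (-0.92, SE 0.08, adjusted p = 1.45e-10) and 38.6, 38.2 and 48.2 TPM in PERK-del cells (-1.47, SE 0.08, adjusted p = 4.83e-15). Fkbp14 was higher in both, at 4.44 ± 0.223 TPM in WT against 9.20 ± 0.540 and 11.4 ± 1.52 TPM (0.91 and 1.18). Pdia5 stood at 23.4, 22.7 and 22.0 TPM in WT and 47.3, 49.2 and 46.9 TPM in GCN2-del cells (1.04, SE 0.05, adjusted p = 7.43e-16), with no overlap in any treatment. Txndc5 and Ppib were higher in GCN2-del cells by 0.75 and 0.62. The abundant chaperones were lower in PERK-del cells, with differences of -0.74, SE 0.06, adjusted p = 8.02e-11 for Hspa5, -0.69 for Hsp90b1, -0.77 for Calr and -0.47 for Pdia3. Hspa5 read 552, 511 and 453 TPM there against 829.5, 879.8 and 815 TPM in WT. Creld2 was lower in both lines (-0.55 and -0.83), as was Cnpy2 (-0.62 and -0.46), while Dnajb9 was higher (0.64 and 0.59). Sil1 and Creld1 were higher in PERK-del cells by 0.75 and 0.67. In each line 11 of the calls held under every alternative and with any 1 library left out, and with the compared groups fitted alone 11 were called in each. The 11 in GCN2-del cells were Hyou1, Dnajb9, Manf, Creld2, Pdia5, Pdia6, Txndc5, Ppib, Fkbp11, Fkbp14 and Cnpy2. Those in PERK-del cells were Hspa5, Hsp90b1, Sil1, Dnajb9, Creld2, Creld1, Calr, Pdia3, Fkbp11, Fkbp14 and Cnpy2.

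Genes that act beside the 33 were counted in the same fit. With thapsigargin 11.4% of all genes were called higher and 14.8% lower in WT, 25.4% and 11.2% in GCN2-del cells, and 2.49% and 2.75% in PERK-del cells, and with starvation 12.5% and 17.3% in WT. Of 13 UPR sensors and transcription factors, 8 rose and 1 fell with thapsigargin in WT, among them Ddit3 (3.94), which encodes CHOP, Ppp1r15a (3.54), which brings a phosphatase to eIF2alpha, and Xbp1 (2.60). With starvation in WT, 7 of the 13 rose and 3 fell, with Ppp1r15a at 2.54, Ddit3 at 1.93 and Atf6 at 1.19, and Eif2ak3 at -0.68. Of 18 tested genes of ER-associated degradation, 8 rose with thapsigargin in WT, led by Herpud1 (4.32), Syvn1 (1.81), a ubiquitin ligase, and Sel1l (1.25), its partner. In GCN2-del and PERK-del cells 13 and 9 of them rose. Of 29 other tested ER folding genes outside the 33, 4 rose and 5 fell with thapsigargin in WT, shares near those of all genes. Ero1lb (1.47) and Ero1l (1.00), the oxidases that recharge the disulfide isomerases, rose most, and Tmx3 (-0.45) fell most. With starvation in WT Ero1l rose by 1.55, while the isomerases Pdia4 and Pdia6 fell. Of 21 cytosolic heat shock genes 9 fell with thapsigargin in WT, with -1.21 for Hspa1b and -1.02 for Hspa8, the constitutive Hsp70 of the cytosol. In GCN2-del cells 3 of those 21 rose and 6 fell, and in PERK-del cells 2 rose.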

How the data were processed

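RNA was measured in 36 libraries of mouse embryonic fibroblasts, 12 groups of 3. Per the submitters' processing notes, reads were checked with FastQC and quantified with kallisto on mm10 (versions, and strand setting for the stranded kit, not given in the sources used here). The deposited values are TPM per gene symbol, computed by the authors; column totals ran from 999999.83 to 1000000.09, so read depth is unknown and no counting interval can be given. They were analysed as log2(TPM + 1), a scale that understates the change of low genes. The 16083 genes that reached 1 TPM in 3 or more libraries were fitted over all 12 groups with limma 3.58.1 in R 4.3.3, with trended, robust empirical Bayes (24 residual degrees of freedom) and two-sided tests. Adjusted p-values are Benjamini-Hochberg over all genes tested, within each of 16 comparisons. On simulated data with 50 genes changed at each size, 14, 37, 50 and 49 were recovered at log2 changes of 0.25, 0.5, 1 and 2, with 12 false calls. Those genes were drawn from the more abundant ones and changed in the WT thapsigargin group alone, with normal noise and no other group differences. Recovery in the real comparisons, where the number of genes called differs, was not measured. Every one of the 33 genes may be named, and outside them the kinases and up to 3 genes per list that rose or fell most. The genes, lists and tests were chosen with earlier results of these data known. Alternatives were the other control group, median-of-ratios scaling, a pseudocount of 0.1, no filter, a filter at 5 TPM, the compared groups alone, a replicate block, no variance trend, each library left out and, added after the data were seen, leaving out 6 libraries of high microRNA share. Where a call is said to have ended, the alternatives named are not always all that ended it. Hsp90b1, Manf, Pdia3, Pdia4, Pdia6, Txndc5, Txndc11, Erp29 and Fkbp14 overlap other expressed genes, whose reads may be divided unevenly. Loci are GENCODE M21 on GRCm38, and promoter sequences are RefSeq on GRCm38.p6. Figures used matplotlib in Python.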

Additional observations from a re-analysis of the deposited data

Results flagged for a closer look

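The thapsigargin or starvation response of 17 of the genes differed between a deletion line and WT by the test of the difference itself, in 26 cases over the 4 comparisons of responses. Of these calls, 9 held under every alternative and with any 1 library left out, and 17 did not. All values are differences of changes in log2(TPM + 1), deletion line minus WT, with limma p-values adjusted over all genes tested, and their causes were not tested.

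For thapsigargin and GCN2-del cells 4 of the 33 genes differed, a share near the 14.2% of all genes called, and 17 after median-of-ratios scaling. The 4 differences were Hspa5 -0.29 (adjusted p = 0.0305), Hspa13 0.60 (adjusted p = 0.0156), Manf -0.46 (adjusted p = 0.00186) and Erp29 -0.29 (adjusted p = 0.0238). For starvation and the same line 4 differed, against 7.71% of all genes, with Hspa5 -0.51 (adjusted p = 0.000229), Dnajb9 -1.01 (adjusted p = 1.21e-05), Cnpy2 -0.71 (adjusted p = 9.64e-05) and Cnpy4 0.31 (adjusted p = 0.0128). Dnajb9 and Cnpy2 rose with starvation in WT and not in this line, where Cnpy2 fell.

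For thapsigargin and PERK-del cells 10 differed, against 12.9% of all genes, with Hsp90b1 0.40 (adjusted p = 0.0361), Hspa13 0.62 (adjusted p = 0.0102), Dnajb9 -0.59 (adjusted p = 0.00555), Calr 0.47 (adjusted p = 0.00986), Canx 0.40 (adjusted p = 0.0369), Pdia4 0.36 (adjusted p = 0.00477), Pdia6 0.36 (adjusted p = 0.000709), Fkbp11 0.37 (adjusted p = 0.0266), Fkbp14 1.05 (adjusted p = 4.53e-05) and Cnpy2 -0.45 (adjusted p = 0.00886). For starvation and the same line 8 differed, against 10.8% of all genes, with Dnajb9 -1.02 (adjusted p = 9.34e-06), Manf 0.38 (adjusted p = 0.0066), Creld2 0.37 (adjusted p = 0.00234), Pdia6 0.27 (adjusted p = 0.0126), Txndc11 0.46 (adjusted p = 0.0153), Fkbp2 0.34 (adjusted p = 0.0359), Cnpy2 -0.50 (adjusted p = 0.00415) and Cnpy4 0.35 (adjusted p = 0.00309). Each of these comparisons uses the same WT libraries as its counterpart in the other deletion line, so the shared differences of Dnajb9, Cnpy2, Cnpy4 and Hspa13 are not independent of each other.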

How the results depend on the processing

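No result among the counts or the single genes reversed its sign past the threshold under any alternative run. The counts of the 33 genes called with thapsigargin stayed within 1.5 times of 26 in WT, 25 in GCN2-del cells and 24 in PERK-del cells under every alternative, from 21 to 26, 21 to 24 and 24 to 24 with each library left out. With starvation the count went from 18 to 9 in WT with the compared groups alone (16 to 18 with a library left out), and from 13 to 4 in GCN2-del cells against DMSO (10 to 14). In PERK-del cells it went from 5 to 0 against DMSO, 0 with the compared groups alone and 8 without the libraries of high microRNA share (3 to 6). With DMSO it went from 1 to 0 in WT after scaling and 0 with the groups alone (0 to 6), and from 2 in GCN2-del cells to 0 alone and 5 without those libraries (1 to 2). The count of differences in thapsigargin response for GCN2-del cells was 4, and 15 against untreated controls, 17 after scaling, 2 with no filter and 8 without the libraries of high microRNA share (2 to 6). For starvation in that line it was 4, and 7 without those libraries (3 to 6). For starvation in PERK-del cells it was 8, and 5 after scaling and 1 with the groups alone (6 to 11), and for thapsigargin there it was 10 (7 to 11). The count of differences between untreated lines went to 11 for both deletion lines with the compared groups alone, from 20 and 25 (18 to 20 and 19 to 24). The shares of all genes called under these alternatives are not given here, apart from scaling. Why these counts moved was not tested, except that fitting the groups alone leaves fewer libraries to estimate the spread. With median-of-ratios scaling the share of higher calls among all genes went from 43.5 to 53.9% for thapsigargin in WT, 69.4 to 48.2% in GCN2-del cells and 47.4 to 60.5% in PERK-del cells, from 41.9 to 52.1% for starvation in WT, and from 62.7 to 49.8% for the untreated PERK-deletion line. Replicate numbers paired no samples: 2 of 27 pairs of same-numbered libraries had deviations correlated above 0.1 (range -0.162 to 0.155). With a replicate block, 523 of the 528 single-gene calls stayed on their side of the threshold, 3 passed and 2 no longer did, and 25 of the 33 genes were called with thapsigargin in WT, 24 in each deletion line and 18 with starvation in WT. Read depth is unknown, so what it limits cannot be stated.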
